A study of Mus musculus with 48 samples.

Results

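Cdon and 8 further genes of the Hedgehog pathway (Boc, Gas1, Ptch1, Smo, Sufu, Gli1, Gli2 and Gli3) were followed across cultures grown from tumors of 4T1, a mammary carcinoma line of the mouse. The 9 genes were taken by name from the 18964 protein-coding genes that the arrays could be read for, with the brightest probe set of each gene. Cdon was chosen by its measured difference, among the lowest of all genes, between lymph node and fat pad sub-clones, so that difference is described below and not tested. The other genes were added by name. Of the 9 genes, 7 passed a filter that kept genes whose mean log2 intensity reached the median of all probe sets, as did 11565 genes in all. Gli1 and Gli2 did not pass it.

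The 48 arrays measured RNA of cells that received no treatment and had been grown to partial confluence. All cells derived from 4T1, of BALB/c origin. TV-LuM sub-clones (9 arrays, 3 sub-clones) came from lung metastases after injection of 4T1 cells into the tail vein, on days 14, 14 and 38, and their labels name no reporter. AxLN-LuM sub-clones (12 arrays, 4 sub-clones) came from lung metastases that arose from axillary lymph node tumors, on days 14, 14, 36 and 43. AxLN sub-clones (12 arrays, 4 sub-clones) came from tumors grown in the axillary node, on days 7 and 14. Both of these groups carry mCherry with Renilla luciferase (mCherry-rLuc). MFP sub-clones (7 arrays, 2 sub-clones) came from mammary fat pad tumors on day 28 and carry GFP with firefly luciferase (GFP-fLuc). The parental mCherry-rLuc and GFP-fLuc lines had 4 arrays each. Each sub-clone was established once, from a digested tumor or lung, and selected with 6-thioguanine, and its arrays are labelled as biological replicates. Different days are separate harvests, so the same number on different days is not taken to mark the same tumor. Differences within a tissue are therefore differences between single sub-clones. The labels mark 7 arrays as removed, with no reason given. These are all arrays of AxLN tumor 1 day 14 and of AxLN-LuM 5 day 14 and 1 array of MFP tumor 1, and they entered no comparison between tissues.

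Hedgehog ligands bind Patched receptors such as Ptch1, which otherwise hold the transducer Smo inactive. Cdon, Boc and Gas1 are cell surface proteins that bind the ligand together with Ptch1. Sufu retains the GLI transcription factors, of which Gli1 and Gli2 act mainly as activators and Gli3 mainly as a repressor when it is processed in the absence of ligand. Ptch1, Gli1 and Hhip are themselves transcribed on pathway activity. In the mammary gland, the pathway is known for signaling between epithelium and stroma. Cdon also takes part in cell adhesion complexes with cadherins and neogenin, and unoccupied Cdon is known as a dependence receptor that can promote apoptosis.

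The arrays were alike in overall brightness, with sums of 6414229 to 6658225 and medians of 8.53 to 9.15 intensity units. They were processed on 2 plates of 24 arrays, and levels are therefore given as log2 over the mean of the 4 parental arrays of the same plate. Correlations between arrays of a sub-clone or line on one plate were 0.984 to 0.988, and no arrays were identical. All 6 epithelial markers passed the filter (Epcam, Cdh1, Krt8, Krt18, Krt7 and Krt14), with summed intensities of 7637.0 to 13829.1. Of the markers of other cells, 2 of 10 for fibroblasts (Col1a1 and Pdgfra), 2 of 5 for leukocytes (Cd68 and Csf1r), 0 of 4 for endothelium, 1 of 4 for lung epithelium (Ager) and 1 of 3 for adipocytes (Plin1) passed. Ptprc, Col3a1, Dcn and Sftpc, which define 3 of these cell types, lay below the filter. In such bulk samples, fewer cells of a type and less RNA per cell cannot be told apart. Precision is limited by the number of sub-clones between tissues, and by the number of arrays for single sub-clones.

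Cdon lies on chromosome 9 (35421528 to 35507652, GRCm38.p6) and Gli3, whose level over the sub-clones was most like that of Cdon among the other members, on chromosome 13 (15463723 to 15730026). RefSeq windows of 300 bases around a transcript start (250 before, 50 after) were found for 7 of the 9 genes, not for Boc and Gli1. The windows of this pair are shown because they are the 2 genes that separated AxLN from MFP sub-clones, with each CpG dinucleotide in capitals.
Cdon, chr9:35451826-35452125, plus strand: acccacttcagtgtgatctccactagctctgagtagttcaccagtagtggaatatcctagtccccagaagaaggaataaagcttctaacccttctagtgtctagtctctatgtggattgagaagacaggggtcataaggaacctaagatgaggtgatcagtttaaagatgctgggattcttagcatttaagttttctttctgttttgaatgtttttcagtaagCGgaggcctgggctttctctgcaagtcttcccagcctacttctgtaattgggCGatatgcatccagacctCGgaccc
Gli3, chr13:15463473-15463772, plus strand: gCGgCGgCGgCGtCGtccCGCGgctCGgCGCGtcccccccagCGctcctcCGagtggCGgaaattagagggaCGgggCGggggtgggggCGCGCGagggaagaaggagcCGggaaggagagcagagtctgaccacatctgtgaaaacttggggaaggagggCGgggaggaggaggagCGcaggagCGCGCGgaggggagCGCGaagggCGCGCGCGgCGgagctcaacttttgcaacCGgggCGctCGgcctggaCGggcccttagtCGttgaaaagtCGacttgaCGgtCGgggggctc
The Cdon window has 3 CpG and 44.7% GC, and 31.4% of 32851 windows have as few CpG or fewer. It surrounds a transcript start 30548 bases inside the annotated gene, so it is not the start of the whole gene. The Gli3 window lies at the start of its gene, with 39 CpG and 71.0% GC, and 96.1% of windows have as few CpG or fewer. The letters CCACCCA, the core of the GLI motif, were in 9.3% of all windows, counted on both strands, and in the windows of 0 of the 7 genes. The longer GACCACCCA, which includes that core, was in 0.253% of windows.

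Cdon showed its highest levels in the sub-clones from the fat pad. In MFP tumor 1 the 3 arrays had intensities of 473.9, 477.7 and 482.5, and in MFP tumor 2 of 295.2, 307.6 and 319.6. The parental lines had 124.0 to 150.4 (mCherry-rLuc) and 122.0 to 155.9 (GFP-fLuc). The MFP sub-clones thus stood 1.73 ± 0.09 and 1.19 ± 0.06 over the parental lines on the log2 scale (SD, n = 3 arrays each). Every MFP array exceeded every parental array.

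The AxLN sub-clones had Cdon levels near those of the parental lines. AxLN tumor 1 day 7 had 116.9, 128.3 and 156.2, AxLN tumor 2 day 7 had 138.0, 139.8 and 148.0, and AxLN tumor 2 day 14 had 136.9, 144.0 and 171.1. The removed AxLN tumor 1 day 14 had 120.7, 127.5 and 131.8. Each of these overlapped the parental arrays, and the means of the 4 sub-clones were -0.09 to 0.00 log2 over parental.

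The AxLN-LuM sub-clones had Cdon levels from the lowest of all to one shared with an MFP sub-clone. AxLN-LuM 1 day 14 had 167.0, 172.3 and 173.0, the removed AxLN-LuM 5 day 14 had 89.6, 91.7 and 108.6, AxLN-LuM 1 day 36 had 272.0, 297.6 and 299.4, and AxLN-LuM 1 day 43 had 151.5, 156.8 and 159.4. The day 36 culture overlapped MFP tumor 2, and AxLN-LuM 5 day 14 was the lowest of all 13 sub-clones. AxLN-LuM 1 day 14 and AxLN-LuM 1 day 36, the higher ones, were on plate 1 and the lower ones on plate 2. Plate and level therefore cannot be told apart among the AxLN-LuM sub-clones. Against the parental lines, in a limma fit to the arrays with the plate as a term, Cdon was higher by 0.32 ± 0.08 on day 14 (SE, adjusted p = 0.00146) and by 1.08 ± 0.08 on day 36 (adjusted p = 4.52e-13). It was lower in AxLN-LuM 5 day 14 (-0.62 ± 0.08, adjusted p = 5.46e-08). On day 43 the difference was 0.08 (adjusted p = 0.485). In every fit to single arrays, p-values measure only the spread between cultures of a sub-clone and not that between tumors or animals.

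The TV-LuM sub-clones also differed among themselves. TV-LuM 1 day 14 had Cdon intensities of 107.3, 115.8 and 118.6, TV-LuM 2 day 14 had 190.1, 207.9 and 230.2, and TV-LuM 1 day 38 had 165.5, 187.1 and 188.4. The first of these lay below every parental array and the others above every one. In the fit against the parental lines, the differences were -0.26 (adjusted p = 0.0104), 0.50 (adjusted p = 3.73e-06) and 0.29 (adjusted p = 0.00384). When a replicate number was left out of every sub-clone, the first became -0.21 (adjusted p = 0.0659, without replicate 2). The last became 0.23 (adjusted p = 0.05, without replicate 1). Thus, of 8 sub-clones in which Cdon was tested, it was higher in 4 and lower in 2 of those from lung. It was not called in the removed AxLN tumor 1 day 14 (-0.11, adjusted p = 0.349) and in AxLN-LuM 1 day 43. The 3 AxLN and 2 MFP sub-clones that were not removed were left aside, because Cdon was picked on AxLN and MFP sub-clones. Whether the removed AxLN tumor 1 day 14 also entered that choice is not stated, so its value is no independent test.

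**Figure D1:**
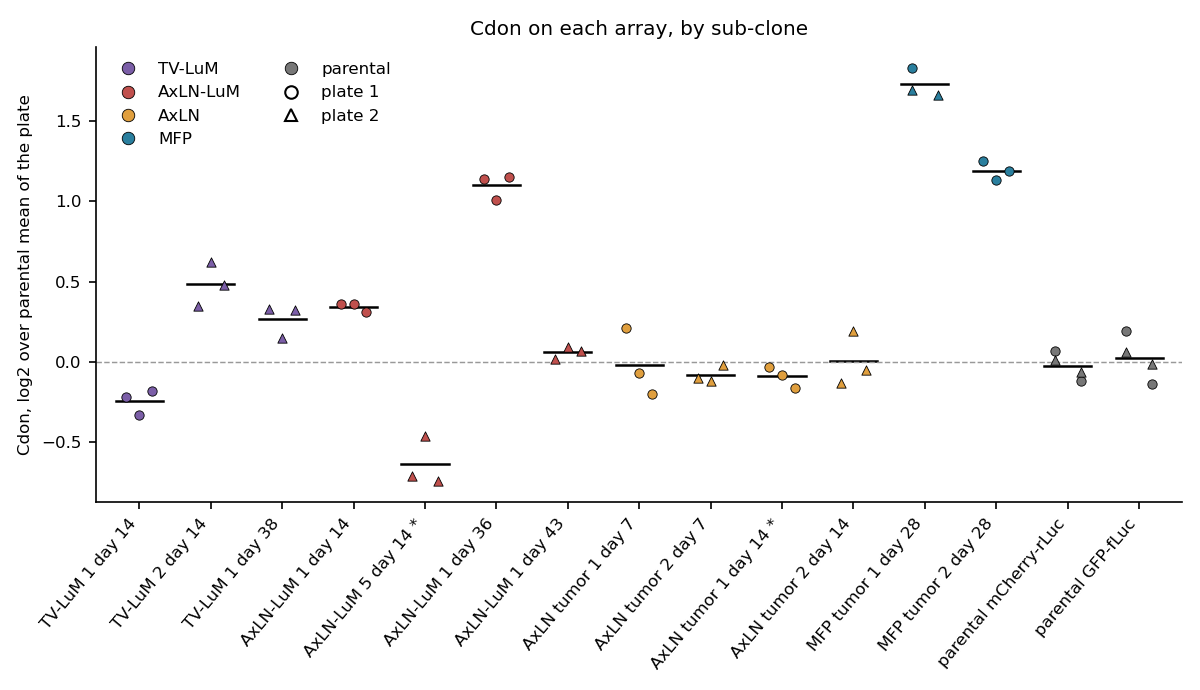
Cdon on each array as log2 over the parental mean of the plate (vertical axis) for the 13 sub-clones and the parental lines. Points are arrays (circles plate 1, triangles plate 2), lines are means and an asterisk marks removed sub-clones. MFP tumor 1 lies at 1.66 to 1.83, above all other arrays, and MFP tumor 2 overlaps AxLN-LuM 1 day 36.

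In order of level, neighbours separated completely at only some places. MFP tumor 1 stood alone at the top, and MFP tumor 2 overlapped AxLN-LuM 1 day 36. TV-LuM 2 day 14, AxLN-LuM 1 day 14 and TV-LuM 1 day 38 (0.48, 0.34 and 0.27 log2 over parental) overlapped each other in turn. AxLN-LuM 1 day 43 and the 4 AxLN sub-clones formed a chain of overlapping levels from 0.06 to -0.09. TV-LuM 1 day 14 (-0.24) and AxLN-LuM 5 day 14 (-0.64) each lay apart at the bottom.

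Between tissues, Cdon averaged -0.03 ± 0.04 log2 over parental in AxLN sub-clones (SD, n = 3) and 1.46 ± 0.38 in MFP sub-clones (SD, n = 2). This difference of -1.49 (SE 0.30) was the one on which Cdon was picked. It placed Cdon as the 16th lowest of 11565 genes, next to Hpse (-1.55), Camk4 (-1.52), Slc14a1 (-1.43) and Rerg (-1.43). Without MFP tumor 1 it was -1.22 and without MFP tumor 2 it was -1.76, and within the plates it was -1.53 (plate 1) and -1.71 (plate 2). The summed intensity of the fibroblast markers was 159.7 to 242.4 on AxLN and 241.1 to 474.5 on MFP arrays, mainly through Pdgfra. The parental lines already had 149.1 to 186.7 (mCherry-rLuc) and 138.4 to 177.8 (GFP-fLuc). Col1a2, Col3a1, Dcn and Lum were below the filter, which used the mean over all arrays. The leukocyte markers summed to 104.4 to 324.7 on AxLN and 82.5 to 179.1 on MFP arrays, with Ptprc at a mean of 4.9 and 5.0. In the parental lines they summed to 117.1 to 143.4 (mCherry-rLuc) and 81.9 to 97.9 (GFP-fLuc). The part of either set of markers in the Cdon difference was not tested.

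Boc, the paralog of Cdon, was dimmer and followed another order. The highest sub-clone was MFP tumor 2, with 39.2 to 43.8, and MFP tumor 1 had 22.3 to 30.6, against 16.3 to 30.6 in the parental lines. AxLN-LuM 1 day 36 (plate 1) had 32.7 to 42.0 and AxLN-LuM 1 day 43 (plate 2) had 10.1 to 16.5, at opposite ends within one tissue. In the fits against the parental lines Boc was higher in 4 and lower in 1 of 13 sub-clones. The largest of these were 0.85 in MFP tumor 2 (adjusted p = 5.71e-05), 0.63 in AxLN-LuM 1 day 36 (adjusted p = 0.00159) and -0.87 in AxLN-LuM 1 day 43 (adjusted p = 3.96e-05). The increases in AxLN tumor 1 day 14 (0.44) and AxLN tumor 2 day 14 (0.38) were not robust. They lost their calls when a replicate number was left out of every sub-clone, with adjusted p up to 0.164 and 0.206.

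Gas1, a membrane-anchored ligand-binding protein, was the dimmest of the 7 members that passed. Its intensities were 15.6 to 25.1 in AxLN-LuM 1 day 14, 17.1 to 17.7 in TV-LuM 2 day 14 and 12.1 to 21.2 in AxLN tumor 2 day 14, and 10.1 to 14.1 in the parental lines. It was higher against the parental lines in these 3 sub-clones (0.78, 0.60 and 0.56, adjusted p = 0.00318, 0.0182 and 0.0294) and lower in none of 13. Each of the 3 calls was lost when a replicate number was left out of every sub-clone, with adjusted p of 0.0586, 0.0854 and up to 0.281. Such a fit loses arrays of all sub-clones, and the TV-LuM 2 day 14 difference was still 0.54 in it. The scatter between arrays of a sub-clone was large for this gene, with a pooled SD of 0.32, close to the SD of 0.38 between sub-clones.

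Ptch1, the receptor and a transcriptional target of the pathway, was lower than in the parental lines in 7 of 13 sub-clones and called higher in 0. The lowest was MFP tumor 1, with 73.2 to 82.8 against 108.3 to 149.1 in the parental lines (-0.68, adjusted p = 4.85e-09). TV-LuM 2 day 14 (81.2 to 87.4), AxLN tumor 2 day 14 (81.7 to 87.0) and TV-LuM 1 day 38 (85.0 to 89.2) also lay below every parental array, with fitted differences of -0.54, -0.52 and -0.49. The smaller decreases in AxLN-LuM 1 day 14 (-0.24) and TV-LuM 1 day 14 (-0.23) lost their calls without replicate 3 of every sub-clone. The differences were then -0.25 and -0.19 (adjusted p = 0.0701 and 0.184). AxLN-LuM 5 day 14, AxLN-LuM 1 day 36 and AxLN-LuM 1 day 43 had 123.5 to 137.3, 121.2 to 128.8 and 127.2 to 149.6, within the parental range but for 1 array.

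Smo, the transducer, varied little but was measured closely, with an SD of 0.04 between arrays of a sub-clone. Its lowest levels were 848.5 to 875.6 in TV-LuM 2 day 14 and 877.7 to 930.3 in AxLN tumor 2 day 14, against 1170.7 to 1368.0 in the parental lines (-0.56 and -0.49, adjusted p = 9.69e-16 and 4.3e-14). Its highest were 1419.9 to 1480.2 in AxLN-LuM 1 day 43 and 1324.3 to 1404.1 in AxLN-LuM 1 day 36 (0.20 and 0.15). In all, Smo was higher in 2 and lower in 8 of 13 sub-clones. Against their own parental line alone, the decreases in AxLN tumor 1 day 14 and AxLN tumor 2 day 7 lost their calls. They were then -0.08 and -0.05 (adjusted p = 0.107 and 0.271), while MFP tumor 1 was called lower (-0.09, adjusted p = 0.0406). The decrease in AxLN tumor 2 day 7 was also not called without replicate 2 or 3 of every sub-clone (adjusted p = 0.0564 and 0.0621).

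Sufu, the GLI inhibitor, had the smallest spread of the 7, with a range of 0.49 over the sub-clones. It was lower in TV-LuM 1 day 38 (166.2 to 193.5, -0.33, adjusted p = 0.00023), TV-LuM 2 day 14 (178.7 to 196.7, -0.26) and AxLN tumor 2 day 14 (168.1 to 215.7, -0.23), against 207.7 to 261.8 in the parental lines. A second, dimmer probe set of Sufu did not follow this order (r = -0.33 over 13 sub-clones), with levels from -0.53 to 0.42. With the mean of both probe sets, these 3 decreases were -0.20, -0.18 and -0.05 and none was called (adjusted p = 0.124, 0.175 and 0.753).

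Gli3 was the GLI factor with the clearest signal, and it was lower in 9 and higher in 2 of 13 sub-clones against the parental lines. AxLN-LuM 1 day 14 (225.4 to 268.1) and AxLN-LuM 1 day 36 (248.8 to 266.5) were highest, with fitted differences of 0.21 and 0.27. AxLN-LuM 5 day 14 (122.2 to 132.3), TV-LuM 2 day 14 (124.2 to 148.8) and AxLN tumor 2 day 7 (135.3 to 149.5) were lowest, with -0.60, -0.49 and -0.44. AxLN-LuM 1 day 43 had 140.4 to 150.8 (-0.44). The high AxLN-LuM sub-clones were on plate 1 and the low ones on plate 2, so plate and level cannot be told apart among them. The increase in AxLN-LuM 1 day 14 lost its call without replicate 3 of every sub-clone (0.14, adjusted p = 0.0928). So did the decrease in TV-LuM 1 day 14 without replicate 1 (-0.16, adjusted p = 0.116). That in AxLN tumor 1 day 14 was lost without replicate 2 or 3 (adjusted p = 0.0725 and 0.0846).

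The parental lines differed in Gli3. It had 168.4 to 186.8 in parental mCherry-rLuc cells and 220.7 to 245.8 in parental GFP-fLuc cells (-0.40, SE 0.04, adjusted p = 0.00324), with no overlap. This was the only one of the 7 members called between these lines, where 12.8% of all genes were called. Cdon differed by -0.05 (SE 0.08, adjusted p = 0.731) between the lines, Boc by 0.29 (SE 0.17, adjusted p = 0.312) and Smo by -0.13 (SE 0.05, adjusted p = 0.117). AxLN and AxLN-LuM sub-clones carry the one reporter and MFP sub-clones the other, so a Gli3 difference between them includes this one. Against their own parental line alone, the Gli3 decreases in AxLN tumor 1 day 14 and AxLN tumor 2 day 14 were -0.02 and -0.11 (adjusted p = 0.9 and 0.252), and Gli3 became lower in MFP tumor 1 and MFP tumor 2 (-0.30 and -0.28, adjusted p = 0.000596 and 0.00338).

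Gli1 and Gli2 lay at the 37.9 and 45.7 percentile of all probe sets. Gli1, a target read out for pathway activity, had intensities of 3.9 to 6.7 on TV-LuM, 4.5 to 7.2 on AxLN-LuM, 5.3 to 8.0 on AxLN, 4.6 to 7.4 on MFP and 4.6 to 8.5 on parental arrays. Gli2 had 5.1 to 10.1 over the same groups, and for both genes the groups overlapped throughout. When genes below the filter were also fitted, Gli1 was lower in TV-LuM 1 day 14 (-0.50, SE 0.16, adjusted p = 0.0156) and no other test of these genes was called.

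**Figure D2:**
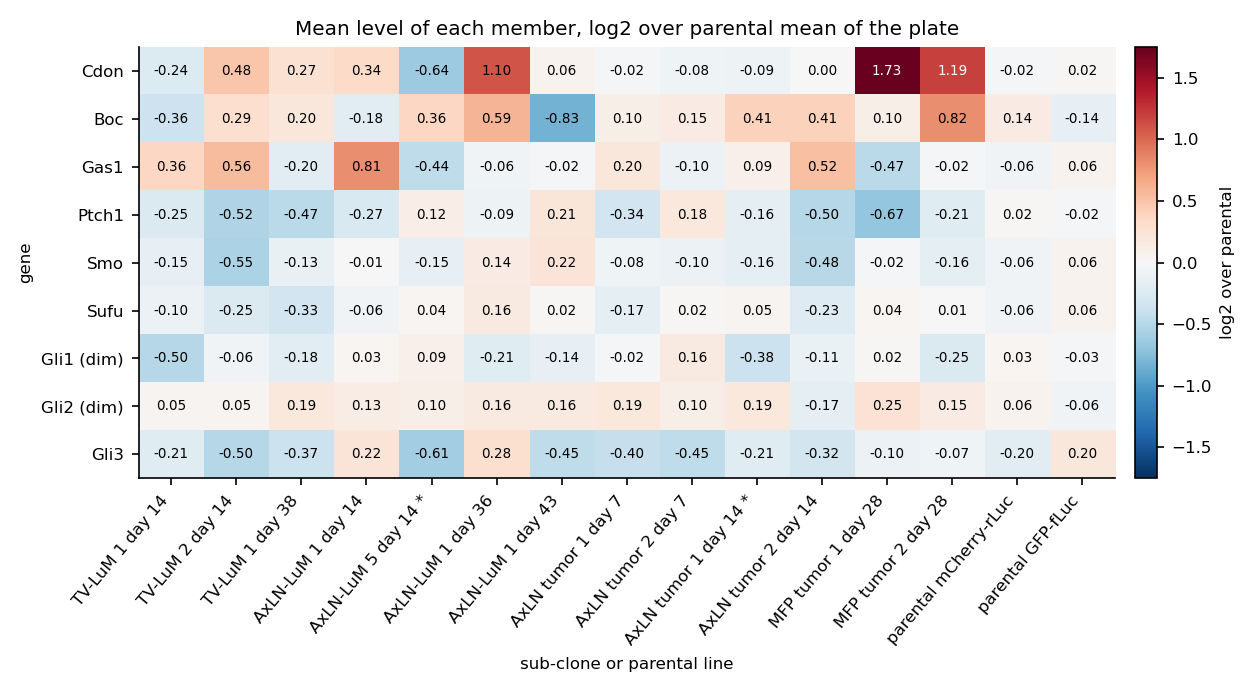
Mean level of each of the 9 genes (one per row) in each sub-clone and parental line (columns), as log2 over the parental mean of the plate (colour scale and numbers). An asterisk marks removed sub-clones and "dim" the 2 genes below the filter. Cdon has the highest level, 1.73 in MFP tumor 1, and Boc the lowest, -0.83 in AxLN-LuM 1 day 43.

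The calls for single sub-clones have to be read against the whole array. Between 32.7% and 63.1% of all genes differed between a sub-clone and the parental lines, and 45 of 86 tests of members were called (52.3%), 15 higher and 30 lower. For the AxLN-LuM sub-clones, 4 of 7 members were called on day 14 (46% of all genes), 4 of 7 on day 36 (47.3%), 3 of 7 on day 43 (42.6%) and 3 of 7 in AxLN-LuM 5 day 14 (63.1%). For the TV-LuM sub-clones these were 4 of 7 in TV-LuM 1 day 14 (41.7%), 6 of 7 in TV-LuM 2 day 14 (54.3%) and 5 of 7 in TV-LuM 1 day 38 (52.4%). For the AxLN sub-clones they were 2 of 6 in AxLN tumor 1 day 7 (48.4%) and 3 of 7 in AxLN tumor 1 day 14 (32.7%). They were 2 of 6 in AxLN tumor 2 day 7 (54.5%) and 6 of 6 in AxLN tumor 2 day 14 (51.4%). MFP tumor 1 had 1 of 6 (50.7%) and MFP tumor 2 had 2 of 6 (39.6%). Pooled over sub-clones, the share of calls among members lay within the range over all genes, while single sub-clones with 6 or 7 members tested lay on either side of it.

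**Figure D3:**
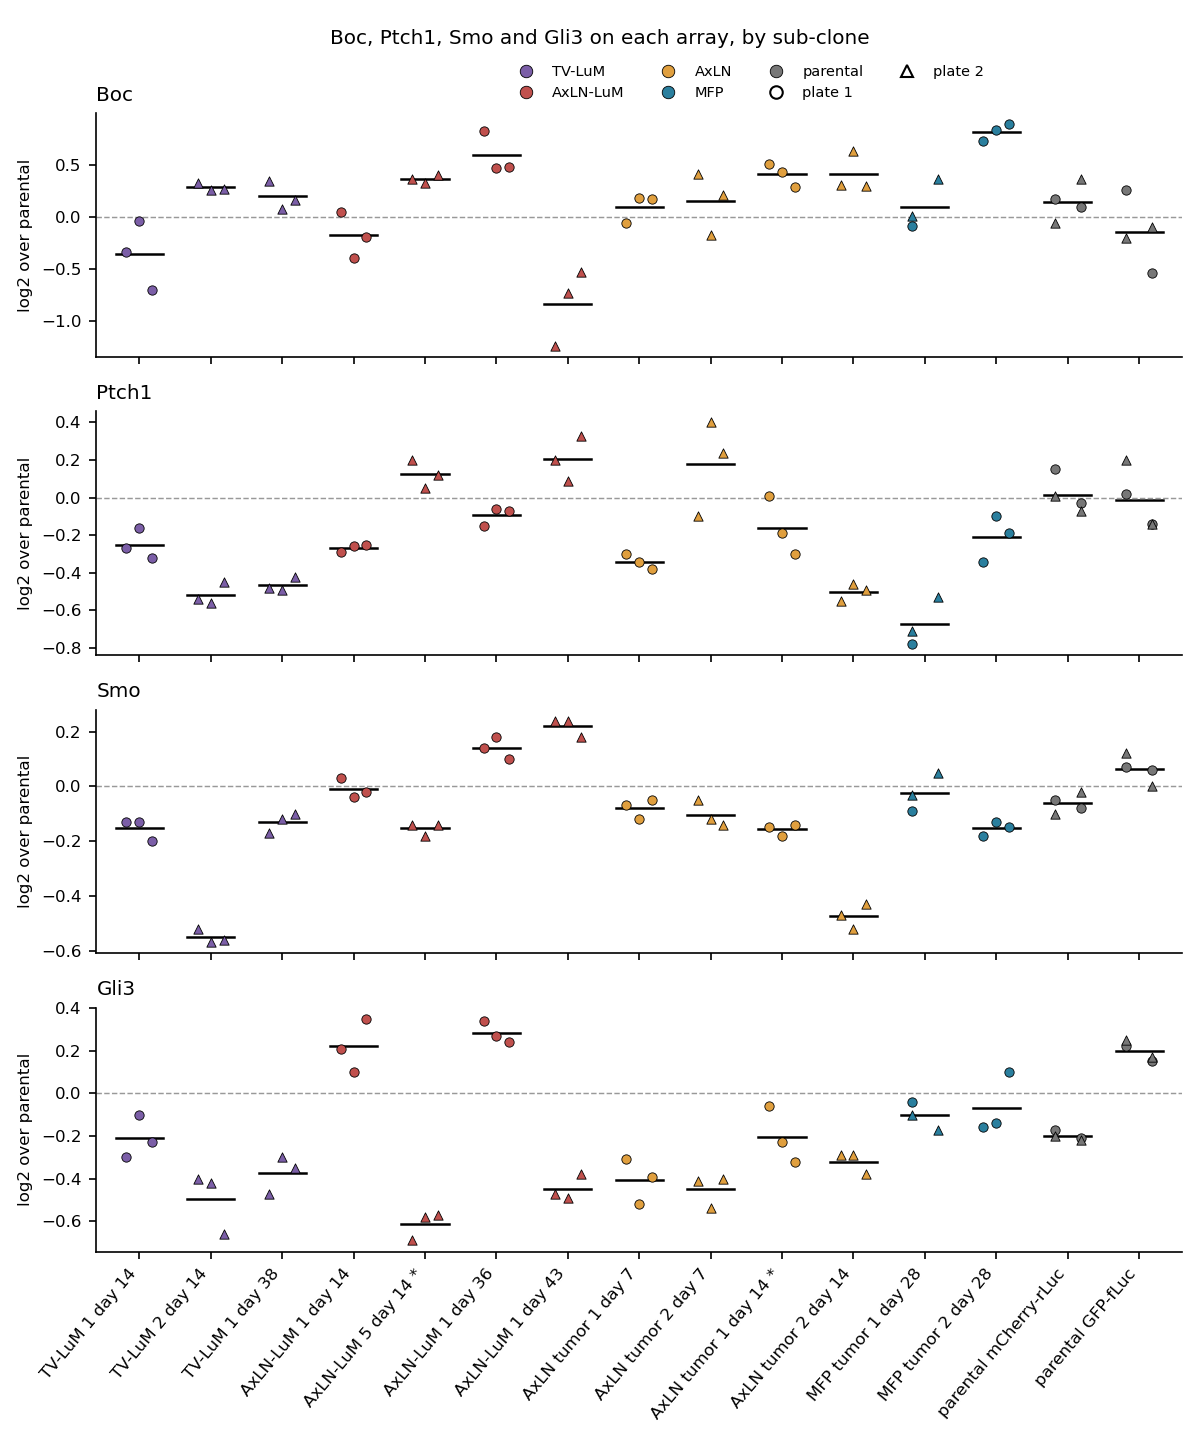
Boc, Ptch1, Smo and Gli3 on each array as log2 over the parental mean of the plate (vertical axes) by sub-clone and parental line, with circles for plate 1, triangles for plate 2, lines for means and an asterisk for removed sub-clones. Smo is lowest in TV-LuM 2 day 14 (-0.55) and AxLN tumor 2 day 14 (-0.48), and Gli3 separates the parental lines (-0.20 in mCherry-rLuc, 0.20 in GFP-fLuc).

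The tissues were then compared with the sub-clone as the replicate. Where tissues also differ in reporter line or day, the site or route of spread cannot be told apart from these. MFP sub-clones carry GFP-fLuc and came from day 28, and AxLN sub-clones carry mCherry-rLuc and came from days 7 and 14. AxLN-LuM sub-clones share the AxLN reporter but came from days 14 to 43, and TV-LuM labels name no reporter. In none of the 6 comparisons was a member called (Cdon left aside wherever AxLN or MFP sub-clones, used to pick it, took part), nor was any of the 11565 genes (percent called 0 in each). At unadjusted p under 0.05 there were 464 to 1376 genes, and the lowest adjusted p of any gene was 0.126. Comparisons that share a tissue share its sub-clones, and values are given side by side. On plate 1, TV-LuM 1 day 14 and AxLN tumor 1 day 7 were the only sub-clones of their tissues that were not removed. On plate 2, AxLN-LuM 1 day 43 and MFP tumor 1 were the only such ones. Values within plates therefore often rest on a single sub-clone of a tissue, and plate and sub-clone cannot be told apart in them.

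In AxLN against MFP sub-clones, Gli3 was the only member besides Cdon whose arrays did not overlap. It had 135.3 to 170.2 on AxLN and 175.2 to 225.0 on MFP arrays, a difference of -0.31 (SE 0.22). The removed AxLN tumor 1 day 14, with 168.7 to 201.4, overlapped the MFP arrays. Such separation was found for 9.49% of all genes and for 2 of the 7 members, in the comparison on which Cdon was picked. When each sub-clone was set against its own parental line, the Gli3 difference was 0.09, so its direction depended on the reporter line used as baseline. Gas1 differed by 0.45 (SE 0.31), Ptch1 by 0.22 (SE 0.25), Boc by -0.24 (SE 0.39), Smo by -0.13 (SE 0.16) and Sufu by -0.15 (SE 0.14). Within plates 1 and 2, the direction turned for Boc (-0.27 and 0.10) and Smo (0.04 and -0.30).

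In AxLN-LuM against AxLN sub-clones, Smo was the only member whose arrays did not overlap, at -0.04 to 0.24 log2 over parental in AxLN-LuM and -0.52 to -0.05 in AxLN. Such separation was found for 4.97% of all genes. The difference was 0.33 (SE 0.14, adjusted p = 0.42), and it was 0.14 within plate 1, 0.51 within plate 2 and 0.20 without AxLN tumor 2 day 14. The arrays of the removed AxLN-LuM 5 day 14, at -0.18 to -0.14, lay within the AxLN range. Cdon differed by 0.53 (SE 0.26), with 151.5 to 299.4 on AxLN-LuM and 116.9 to 171.1 on AxLN arrays, but the AxLN arrays had been used to pick it. Within plates the Cdon difference was 0.74 (plate 1) and 0.10 (plate 2). Gli3 differed by 0.41 (SE 0.19, adjusted p = 0.443), with 0.66 within plate 1 and -0.06 within plate 2. Boc differed by -0.36 (SE 0.35, adjusted p = 0.697), with 0.11 and -1.12. The direction of both turned between plates that hold different sub-clones. Sufu differed by 0.17 (SE 0.12, adjusted p = 0.601). In AxLN-LuM against MFP sub-clones, 0 of 7 members separated (2.86% of all genes), and the adjusted p was 0.999 for the members tested. The difference of Cdon, whose MFP arrays were used to pick it, was -0.96 (SE 0.30), with -0.78 within plate 1 and -1.62 within plate 2.

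TV-LuM and AxLN-LuM sub-clones both came from the lung, by different routes, and neither was used to pick Cdon. Cdon averaged 0.17 ± 0.37 log2 over parental in the TV-LuM cultures and 0.50 ± 0.54 in those of AxLN-LuM (SD, n = 3 sub-clones each), a difference of -0.33 (SE 0.27, adjusted p = 0.704), smaller than the spread within either group. It was -0.97 within plate 1 and 0.32 within plate 2, so its direction turned between plates that hold different sub-clones. Smo was at -0.57 to -0.10 in TV-LuM and -0.04 to 0.24 in AxLN-LuM arrays with no overlap, as were 2.38% of all genes. Its difference was -0.39 (SE 0.16, adjusted p = 0.477), with -0.21 within plate 1, -0.56 within plate 2 and -0.26 without TV-LuM 2 day 14. The differences of Gli3 (-0.38, SE 0.18, adjusted p = 0.516), Ptch1 (-0.36, SE 0.21, adjusted p = 0.576) and Sufu (-0.27, SE 0.12, adjusted p = 0.495) did not pass either. Within plates 1 and 2, Gli3 differed by -0.46 and 0.01, Ptch1 by -0.07 and -0.70 and Sufu by -0.15 and -0.31.

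In TV-LuM against AxLN sub-clones, 0 of 7 members separated (6.1% of all genes), and Ptch1 differed by -0.19 (SE 0.21, adjusted p = 0.776), with 0.09 within plate 1 and -0.33 within plate 2. In TV-LuM against MFP sub-clones, Cdon alone separated (8.76% of all genes), with 107.3 to 230.2 on TV-LuM and 295.2 to 482.5 on MFP arrays. This difference was -1.29 (SE 0.31), with the MFP arrays again those used to pick it. Sufu differed by -0.25 (SE 0.13, adjusted p = 0.619), with -0.11 within plate 1 and -0.34 within plate 2.

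**Figure D4:**
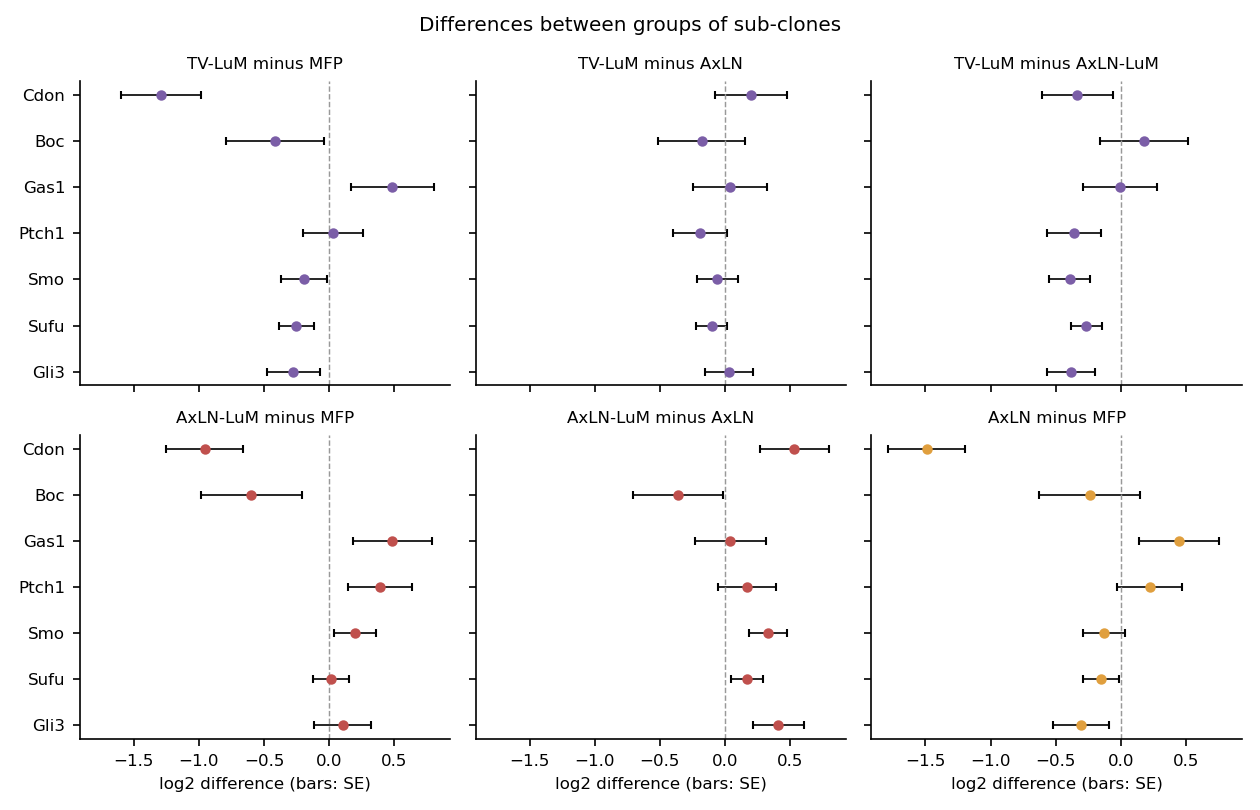
Differences of the 7 genes that passed the filter in the 6 comparisons between tissues (horizontal axes, log2 scale, first tissue minus second), with bars for the SE from the limma fit. Cdon is at -1.29 in TV-LuM minus MFP and -1.49 in AxLN minus MFP, and every other value lies between -0.60 and 0.53 except that of Cdon in AxLN-LuM minus MFP (-0.96).

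The members did not vary alike. Cdon had an SD of 0.66 over the 13 sub-clones, larger than that of 94.4% of genes, and a range of 2.36. Boc (SD 0.43) and Gas1 (SD 0.38) followed, then Ptch1 (0.28), Gli3 (0.27), Smo (0.21) and Sufu (0.14), where the median of all genes was 0.25. The SD of Cdon, and its correlations below, include the difference on which it was picked. The scatter between arrays of a sub-clone was 0.11 for Cdon, 0.21 for Boc and 0.32 for Gas1. Over the sub-clones Cdon correlated with Gli3 (r = 0.59), Ptch1 (r = -0.47), Boc (r = 0.31), Sufu (r = 0.24), Gas1 (r = -0.20) and Smo (r = 0.19). Smo and Sufu correlated with r = 0.64. These are descriptions over 13 cultures that share plates, reporter lines and the 4T1 origin.

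Rerg, which encodes a Ras-like growth inhibitor, had the pattern most like Cdon among the genes passing the filter (r = 0.948 over 13 sub-clones). These include the AxLN and MFP sub-clones on which Cdon was picked, so the likeness is a description and no independent test. Rerg was itself low in AxLN against MFP sub-clones (-1.43). It stood at 2.06 in MFP tumor 1, 1.53 in AxLN-LuM 1 day 36, 0.92 in MFP tumor 2 and 0.80 in TV-LuM 2 day 14, and at -0.47 in AxLN-LuM 5 day 14. Next were Tgfb1 (r = 0.847), Rad21 (r = 0.844), Anp32a (r = 0.841) and Ptges (r = 0.827), each also highest in MFP tumor 1. Tgfb1 is a growth factor, Rad21 a cohesin subunit and Ptges a prostaglandin synthase. The most opposite patterns were those of Arap2 (r = -0.904), Tmem40 (r = -0.876) and Nras (r = -0.863).

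**Figure D5:**
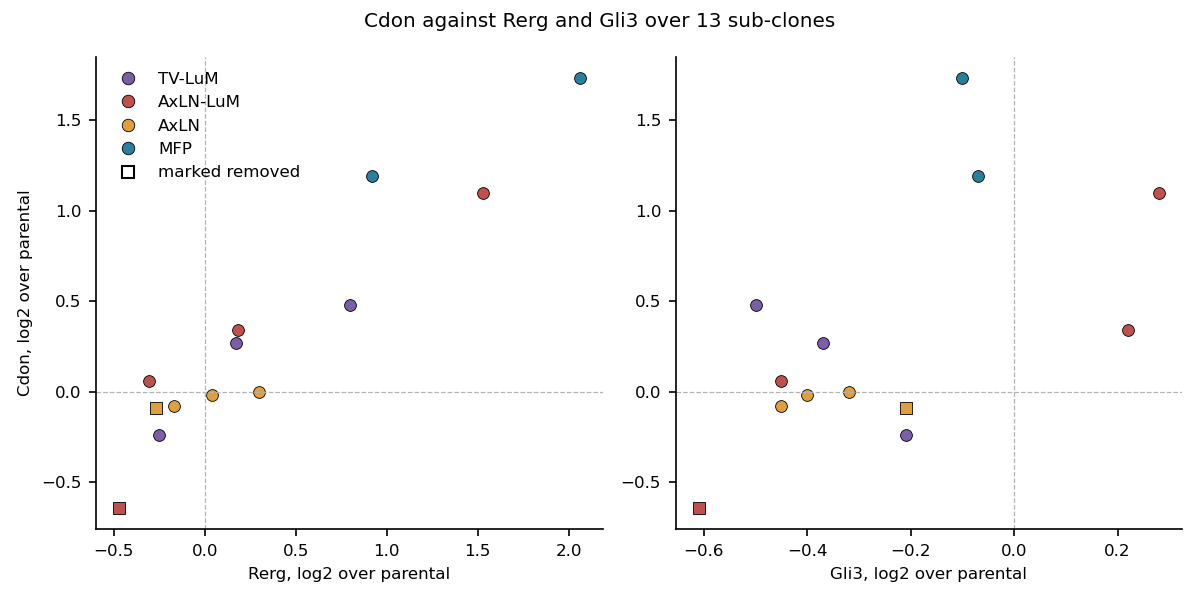
Cdon (vertical axes) against Rerg and Gli3 (horizontal axes) in the 13 sub-clones, each as log2 over the parental mean of the plate. Colours are tissues and squares are removed sub-clones. Cdon runs closely with Rerg (r = 0.948) and loosely with Gli3 (r = 0.59), over sub-clones that include those on which Cdon was picked.

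Around the members, the wider pathway was described by lists of genes. In AxLN against MFP sub-clones, 3 of 16 target genes that passed the filter had a difference above 0, with a median of -0.24 where that of all genes was -0.015, and none was called. The targets with the largest differences were Hhip (-1.22, SE 1.49), Osr1 (-1.13, SE 0.76), Foxc2 (-0.80, SE 0.50) and Sfrp1 (-0.75, SE 0.69). For the reception list, which includes Cdon itself, 2 of 7 were above 0 (median -0.24), for ligands and their release 2 of 5 (median -0.03), for the cilium and signal relay 10 of 15 (median 0.13), for GLI factors and their regulators 11 of 17 (median 0.09) and for partners of Cdon outside Hedgehog 6 of 13 (median -0.04). Dhh, a Hedgehog ligand, had the largest difference of its list (-0.57, SE 0.27), as did Arrb1 (-0.53, SE 0.23) of the relay, Prkaca (-0.34, SE 0.14), a kinase subunit acting on GLI proteins, and Ntn4 (0.45, SE 0.25), a netrin. None of the lists held a called gene in any of the 6 comparisons between tissues.

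In TV-LuM against AxLN-LuM sub-clones, 6 of 16 targets lay above 0, with a median of -0.28 where that of all genes was -0.009. Foxf1 (1.05, SE 0.54), Ccnd2 (-0.96, SE 0.39) and Hhip (-0.82, SE 1.60) had the largest values, and Dll1, a Notch ligand on the partner list, stood in TV-LuM at 0.499 times its AxLN-LuM level (adjusted p = 0.457). Against AxLN sub-clones, AxLN-LuM sub-clones had 10 of 16 targets above 0, with a median of 0.06 where that of all genes was 0.016. Between the parental lines, the genes of these lists called higher in mCherry-rLuc cells were Foxf1 (0.56), Ccnd2 (0.47) and Hhat (0.33). Those called lower were Dll1 (-0.60), Hhip (-0.41), Gli3, Dync2h1 (-0.26), Cdk6 (-0.26) and Neo1 (-0.25). By list they were 1 of 5 for ligands and release, 1 of 7 for reception, 1 of 15 for the relay and 1 of 17 for GLI factors. Among 16 targets 2 were higher and 2 lower, and among 13 partners 2 were lower. Hhip is under both reception and targets. Of all genes, 12.8% were called between these lines.

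Hhip, a target that encodes a decoy receptor for the ligands, had far wider levels than any member. It had intensities of 10.6 to 12.6 in TV-LuM 1 day 14, near the array medians, and 909.2 to 1016.6 in AxLN-LuM 1 day 14. The range over the 13 sub-clones was 6.40 on the log2 scale, and its SD of 2.13 was above that of 99.9% of genes. With the lowest levels near the array medians, the sizes at the low end are not well determined. TV-LuM 2 day 14 (607.9 to 649.0) and MFP tumor 1 (463.9 to 509.3) were also high, and AxLN-LuM 1 day 43 (10.5 to 14.4) and AxLN-LuM 5 day 14 (9.2 to 19.8) were low. In the fits against the parental lines, Hhip was higher in AxLN-LuM 1 day 14 (2.36, adjusted p = 3.98e-16), TV-LuM 2 day 14 (1.71, adjusted p = 1.48e-12) and MFP tumor 1 (1.38, adjusted p = 3.92e-11). It was lower in 7 sub-clones, with -4.04 in TV-LuM 1 day 14 (adjusted p = 4.36e-22), -3.97 in AxLN-LuM 1 day 43 (adjusted p = 1.45e-21) and -3.92 in AxLN-LuM 5 day 14 (adjusted p = 6.57e-23). High and low levels thus occurred within each group of lung sub-clones, and the fitted SE between tissues was correspondingly above 1. Over the sub-clones Hhip correlated with Osr1 (r = 0.76), Cdon (r = 0.62) and Gli3 (r = 0.48), and with Ptch1, another target, in the opposite direction (r = -0.57).

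Osr1, a transcription factor on the target list, was low in some of the same cultures. It had 12.1 to 16.0 in TV-LuM 1 day 38, 15.8 to 21.3 in AxLN-LuM 5 day 14 and 26.0 to 31.4 in AxLN-LuM 1 day 43, and 340.5 to 379.7 in MFP tumor 1. Foxf1, a forkhead factor, had its extremes elsewhere, with 241.3 to 266.3 in TV-LuM 2 day 14 and 38.5 to 44.7 in AxLN-LuM 1 day 43, and its levels ran opposite to those of Ptch1 (r = -0.80). The targets on the list therefore did not share one order over the sub-clones.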

How the data were processed

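RNA of 48 cell cultures was hybridised to Affymetrix Mouse Gene 2.1 ST arrays. The authors summarized each plate by RMA in Affymetrix Expression Console, whose version is not given in the sources used here, brought both plates to one scale through their total expression and joined them. Deposited values are linear intensities, from 1.11 to 10561.01. Only 6 arrays carry a plate in their labels, and the plate was read from the values (24 arrays each), which placed all 6 as labelled. The parental arrays among these 6 helped to define the plate profile, so only those of MFP tumor 1 check it. Log2 values were computed here.

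Of 41345 probe sets, 23521 have 1 gene symbol in the platform annotation, 1820 several and 16004 none. Of the first, 23328 matched RefSeq (GRCm38.p6) by Entrez ID and 20158 were protein-coding, for 18964 genes. The brightest probe set stood for each gene, and genes below the median probe set (mean log2 3.11) were filtered out. Levels are log2 minus the parental mean of the plate.

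Tissues were compared with limma 3.58.1 (R 4.3.3) with the sub-clone as replicate, over 8 sub-clones where TV-LuM was not compared and over 11 where it was. Single sub-clones and the parental lines were compared over arrays with a plate term. P-values were adjusted by Benjamini-Hochberg over all 11565 genes, and calls are at 0.05. The fits were tested on simulated data. Tables were handled in Python 3.11.15 with pandas 2.3.3 and numpy 2.4.6, and plots drawn with matplotlib 3.10.9. Alternatives changed the baseline, scaling, filter, probe set, samples, replicate unit, plate and the replicates left in. The text names the 9 genes in every comparison, up to 4 genes per pathway list with the largest differences, and the 5 genes most like and 3 most unlike Cdon by Pearson correlation. The wide Hhip, Osr1 and Foxf1 levels were singled out after their values were seen. The genes and lists were chosen with earlier results of these data known. Of the genes listed, 8 entries were not matched to a probe set.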

Additional observations from a re-analysis of the deposited data

Results flagged for a closer look

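In the groups of 4 samples that were tested, no result was far enough from its group to be singled out. Of 36 groups of 4 samples tested for an outlying sample (Dixon's test), 0 held one, where chance gives about 1 in 20.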

How the results depend on the processing

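The Cdon difference between AxLN and MFP sub-clones kept its direction under every alternative run, from -1.76 to -1.22 with sub-clones left out. It was -1.44 with the own parental line as baseline, -1.50 after quantile normalization and -1.51 with removed arrays included. Cdon was picked on this difference from the same arrays, so its kept direction is a description and no test. The Gli3 difference between these tissues was 0.09 with the own parental line as baseline, against -0.31. Members called depended on the unit of replication. With arrays as replicates, which treats cultures of one sub-clone as independent, 3 members were called in AxLN-LuM against AxLN (Cdon, Gli3 and Smo), 1 in AxLN-LuM against MFP (Cdon), 4 in TV-LuM against AxLN-LuM (Gli3, Ptch1, Smo and Sufu) and 2 in TV-LuM against MFP (Cdon and Sufu), where 0 were called with the sub-clone as replicate. These fits called 29.6%, 8.67%, 24.8% and 23.2% of all genes. The calls of Cdon rest on AxLN or MFP arrays used to pick it and are no test. The replicate numbers did not pair the samples, since deviations of same-numbered arrays correlated at -0.08 to 0.07. Adding the number as a replicate block left these counts at 3, 1, 4 and 2, and the members called against the parental lines at 44, where 45 were called without it. With sub-clone fitted as a random block, 1 member was called in TV-LuM against AxLN-LuM (Smo, with 2.36% of all genes) and 1 in TV-LuM against MFP (Cdon, no test for the same reason, with 1.69%). Leaving out sub-clones gave 0 to 0 calls in each of the 6 comparisons, leaving out a parental array gave 1 to 1 call between the lines, and leaving out an array of each sub-clone gave 40 to 41 calls against the parental lines. Of the 5 genes most like Cdon, 1 was among the 5 with 11 sub-clones and 2 with the own parental line as baseline. The range of Sufu was 0.95 with its other probe set, against 0.49. Of the results for single genes, 1681 alternatives kept their direction and side of the threshold, 84 moved, 40 passed and 38 lost the threshold. Signal near background limits Gas1, Gli1 and Gli2. The number of sub-clones limits all comparisons between tissues.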
